A study of Mus musculus with 6 samples.

Results

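The genes described here are 10 enzymes and partner proteins that write, remove or maintain repressive chromatin marks: the DNA methyltransferases Dnmt1, Dnmt3a and Dnmt3b, the hemimethylated-DNA reader Uhrf1, the methylcytosine dioxygenases Tet1, Tet2 and Tet3, and the Polycomb subunits Ezh2, Eed and Suz12. They were chosen by gene symbol, and each matched 1 row of a deposited table of 22740 protein-coding genes. RNA was sequenced from the mouse melanoma cell line B16, labelled BRAFV600E-negative (the series' design text names the subline B16-F10), in 3 samples given the solvent DMSO and 3 given 1 uM CX-5461, all collected after 3 days. CX-5461 is a small molecule known to block transcription of the ribosomal RNA genes by RNA polymerase I. Both groups come from 1 cell line, and the labels do not say whether replicates were separate cultures, so p-values measure only the spread between these samples, which may be technical.

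DNA methylation in mammals is placed on cytosines of CpG dinucleotides. Dnmt3a and Dnmt3b set it on unmodified DNA. After each round of replication Uhrf1 binds the half-methylated daughter strands and brings in Dnmt1, which copies the mark to the new strand. The Tet enzymes oxidise methylcytosine and so start its removal. Polycomb repressive complex 2 (PRC2) methylates lysine 27 of histone H3. Ezh2 is its catalytic subunit, Eed reads the mark and stimulates the enzyme, and Suz12 holds the core together. Dnmt1, Uhrf1 and Ezh2 are textbook genes of dividing cells, and their promoters are known targets of E2F transcription factors.

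Library totals ran from 17573990 to 22908309 counts. Each member had between 78 and 5011 counts in every library, so all 10 passed the filter on low counts. The chi-square per degree of freedom between replicates was 1.57 to 2.54 for the DMSO pairs and 5.65 to 9.39 for the CX-5461 pairs, and the pairs with CX-5461 replicate 2 gave 9.39 and 7.64. For Tet2, Tet3 and the imprinted genes, values are given with and without this library. Of 12198 tested genes, 73.7% were called at an adjusted p below 0.05 (edgeR quasi-likelihood test, Benjamini-Hochberg over all tested genes), 37.2% higher and 36.5% lower with CX-5461. Scaling held the median change over the tested genes near 0, at -0.005 on the log2 scale, so each change below is relative to other genes. All 7 melanocyte markers were detected, for example Dct at 8573 CPM with DMSO (the usual unit of counts scaled to a common library size), and all 7 were higher with CX-5461. The 6 fibroblast markers summed to 12.5 to 16.5 CPM with DMSO and 30.9 to 34.4 CPM with CX-5461, and of their 3 tested genes Col1a2 rose from 2.22 to 25 CPM, Col1a1 fell from 6.94 to 2.81 CPM and Pdgfra fell from 5.8 to 4.5 CPM, while Thy1 had no count in any library. The 6 leukocyte markers summed to 11 to 11.9 and 15.6 to 17.7 CPM, with Cd3e and Itgam at 0 in every library and a single count of Ptprc in all 6. The 4 endothelial and the 4 keratinocyte markers summed to at most 0.338 and 0.0505 CPM. The part of these marker changes in the results was not tested. In bulk RNA, fewer cells that express a gene and less of its RNA per cell cannot be told apart.

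With CX-5461 the maintenance pair Uhrf1 and Dnmt1 rose strongly, Dnmt3b fell, and the PRC2 gene Suz12 fell, while Ezh2 changed by too little to pass. Of the 10 genes, 4 were called higher (Uhrf1, Dnmt1, Tet1 and Dnmt3a), 4 lower (Dnmt3b, Suz12, Tet3 and Eed) and 2 missed the threshold (Tet2 and Ezh2). The median of the 10 log2 changes was -0.04. The 8 called of 10 lie near the 73.7% of all tested genes, so the number of calls does not set these genes apart. Changes of at least 2-fold were called for 3 of the 10 genes, Uhrf1, Dnmt1 and Dnmt3b, and for 15.9% of all tested genes. The libraries of the groups did not overlap for 8 of the 10 genes, against 76.1% of all tested genes.

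**Figure D1:**
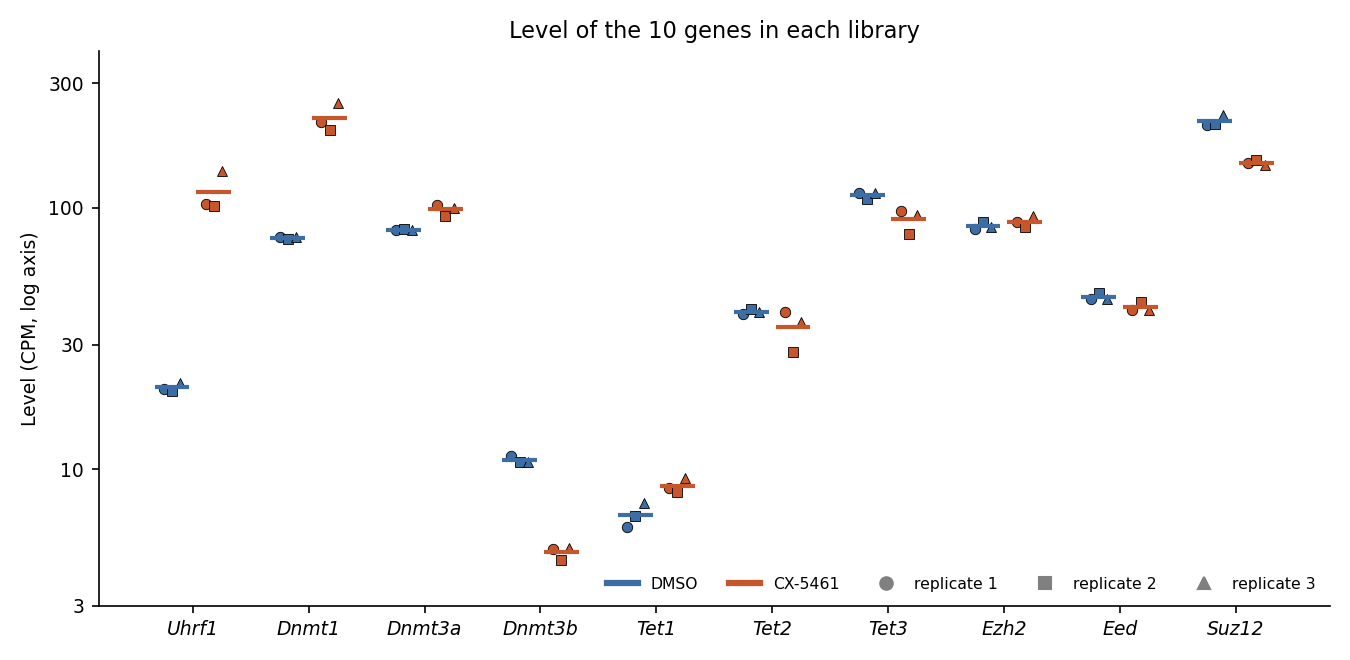
Level of each gene in CPM (log axis) in the 3 DMSO libraries (blue) and the 3 CX-5461 libraries (orange); symbols mark the replicate and bars the group mean. Uhrf1 and Dnmt1 lie far higher with CX-5461 and Dnmt3b lower, while the libraries of the groups overlap for Tet2 and Ezh2.

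Uhrf1 (ENSMUSG00000001228, chromosome 17, 56303321 to 56323486, plus strand, GRCm38) had the largest change of the 10. It held 20.3, 20.0 and 21.4 CPM in DMSO replicates 1 to 3 and 104, 102 and 139 CPM in CX-5461 replicates 1 to 3. Every treated library lay above every DMSO library, and CX-5461 replicate 3 was the highest. The log2 change was 2.48 ± 0.10 (SE, n = 3 per group), a 5.59-fold rise (edgeR adjusted p = 1.04e-11), and 2.43% of the tested genes changed by more in either direction.

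Dnmt1 (ENSMUSG00000004099, chromosome 9, 20907209 to 20959888, minus strand) held 77.6, 76.1 and 77.4 CPM with DMSO and 214, 198 and 253 CPM with CX-5461. The treated libraries again lay above all DMSO libraries, with replicate 3 the highest. It rose by 1.53 ± 0.07 on the log2 scale, or 2.88-fold (edgeR adjusted p = 4.36e-11). DMSO libraries varied little, with a coefficient of variation of 1.04% for Dnmt1 and 3.56% for Uhrf1, against 12.8% and 17.9% with CX-5461.

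Genes of DNA replication were higher with CX-5461 as well. All 17 replication genes of a chosen list (genes of the MCM helicase and its loading, the GINS complex, Pcna, nucleotide synthesis and the primase-polymerase) were called higher, with a median log2 change of 1.90, beside -0.005 for all tested genes. The geometric mean of these 17 genes was 19.6, 20.0 and 22.4 CPM in DMSO replicates 1 to 3. In CX-5461 replicates 1 to 3 it was 71.8, 75 and 86.9 CPM. CX-5461 replicate 3 was the highest, as for Uhrf1 and Dnmt1, but replicate 2 lay above replicate 1, unlike for both genes. Cdc6, which loads the helicase, rose 11.7-fold, thymidine kinase Tk1 7.70-fold and the polymerase subunit Pola1 6.59-fold, or by 1.50 on the log2 scale in place of 2.72 with an offset for gene span. The log2 change of Uhrf1 lay above the median of this list and that of Dnmt1 below it. The part of the replication genes' rise in that of Uhrf1 and Dnmt1 was not tested.

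Promoter windows of RefSeq (build GRCm38.p6, 250 bases before to 50 after a transcript start) were read for the 10 genes, all of which matched, with 15 windows in all. Short words of the E2F consensus, TTCCCGC and TTGGCGC, were searched on both strands. They do not overlap each other in any window shown. At least 1 word was present in 6.81% of all 32851 windows and 12.1% of the 11733 windows of tested genes, or, counted by gene with any window holding it, in 7.79% of all genes and 14.5% of tested genes. Of the 15 windows 4 held a word, from 4 of the 10 genes, namely Uhrf1, Dnmt1, Ezh2 and Suz12, as did 9 of the 14 replication genes that had a window. These 4 are printed because their transcripts went 3 ways, and Dnmt3b because it fell most. Capitals mark the word, and each sequence reads 5′ to 3′ on the gene's strand.
Uhrf1, chr17:56303087-56303386, plus strand, higher with CX-5461: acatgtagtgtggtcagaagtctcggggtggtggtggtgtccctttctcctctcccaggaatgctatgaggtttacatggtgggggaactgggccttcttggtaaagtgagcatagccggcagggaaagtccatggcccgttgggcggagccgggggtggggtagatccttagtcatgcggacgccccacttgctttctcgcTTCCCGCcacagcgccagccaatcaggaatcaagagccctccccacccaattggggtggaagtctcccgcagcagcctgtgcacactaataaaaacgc
Dnmt1, chr9:20952574-20952873, minus strand, higher: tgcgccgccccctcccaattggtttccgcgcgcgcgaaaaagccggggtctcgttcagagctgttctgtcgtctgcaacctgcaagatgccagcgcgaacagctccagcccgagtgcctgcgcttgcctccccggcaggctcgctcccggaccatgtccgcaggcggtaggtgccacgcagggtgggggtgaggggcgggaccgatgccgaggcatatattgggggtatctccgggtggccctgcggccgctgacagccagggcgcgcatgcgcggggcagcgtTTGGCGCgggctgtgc
Ezh2, chr6:47594981-47595280, minus strand, not passed: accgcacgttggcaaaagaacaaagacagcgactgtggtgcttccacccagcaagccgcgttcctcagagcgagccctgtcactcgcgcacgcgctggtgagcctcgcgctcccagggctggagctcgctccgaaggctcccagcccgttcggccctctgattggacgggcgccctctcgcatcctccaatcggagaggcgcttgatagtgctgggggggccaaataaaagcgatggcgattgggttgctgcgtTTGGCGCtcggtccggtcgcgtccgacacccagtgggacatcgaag
Suz12, chr11:79992856-79993155, plus strand, lower: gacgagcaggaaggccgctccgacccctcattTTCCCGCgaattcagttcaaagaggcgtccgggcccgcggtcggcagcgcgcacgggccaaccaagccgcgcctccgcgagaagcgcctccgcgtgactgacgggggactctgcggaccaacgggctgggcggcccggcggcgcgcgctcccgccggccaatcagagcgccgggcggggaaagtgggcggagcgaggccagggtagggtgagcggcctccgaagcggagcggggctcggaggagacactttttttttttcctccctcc
Dnmt3b, chr2:153649199-153649498, plus strand, lower, no word: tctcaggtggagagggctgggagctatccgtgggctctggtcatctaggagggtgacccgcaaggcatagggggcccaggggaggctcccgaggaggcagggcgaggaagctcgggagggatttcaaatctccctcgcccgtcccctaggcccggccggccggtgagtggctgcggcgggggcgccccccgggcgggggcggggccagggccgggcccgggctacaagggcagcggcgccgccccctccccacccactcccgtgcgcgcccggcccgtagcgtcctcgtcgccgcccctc
The word TTCCCGC began 48 bases before the start in Uhrf1 and 218 bases before it in Suz12. The word TTGGCGC began 4 bases past the first base of the transcript in Ezh2 and 34 bases past it in Dnmt1. Uhrf1 has a further window and Dnmt1 has 2 further windows, none with a word, and gene counts do not show which start was used. The presence of a word did not go with 1 direction of change among these genes. CpG dinucleotides numbered 12 in the Uhrf1 window, 33 in that of Dnmt1, 31 in Ezh2, 41 in Suz12 and 30 in Dnmt3b, beside a median of 21 in the windows of tested genes.

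The de novo enzymes changed in opposite directions. Dnmt3b (ENSMUSG00000027478, chromosome 2, 153649450 to 153687730, plus strand) held 11.3, 10.6 and 10.6 CPM with DMSO and 4.95, 4.49 and 5.00 CPM with CX-5461. All treated libraries lay below all DMSO libraries. Dnmt3b changed by -1.16 ± 0.11 on the log2 scale, a 2.24-fold fall (edgeR adjusted p = 1.47e-07). It rested on 78 to 220 counts per library, the fewest in total among the 10 genes after Tet1.

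Dnmt3a (ENSMUSG00000020661, chromosome 12, 3806007 to 3914443, plus strand) held 82.2, 83.3 and 82.5 CPM with DMSO and 103, 93.6 and 100.3 CPM with CX-5461, with no overlap. Its rise was 0.26 ± 0.05 on the log2 scale, or 1.20-fold (edgeR adjusted p = 0.000237). Dnmt3a spans 108 kb, the longest of the 10, and tested genes of its span changed by 0.32 on a smoothed curve. With an offset for gene span its log2 change was -0.065 (adjusted p = 0.248), and with an offset for GC content 0.036 (adjusted p = 0.523), or 0.19 with that offset centred at 0 (adjusted p = 0.0032), within a range of 4.19e-06 to 0.523 over all alternatives. Per kb of exon the Dnmt3a to Dnmt3b ratio was 2.24, 2.41 and 2.39 in the DMSO libraries and 6.36, 6.40 and 6.15 in the CX-5461 libraries. The ratio thus rose 2.69-fold with no overlap between groups (exact two-sided permutation test, p = 0.1, the smallest that 3 against 3 allows; 0.12 after Benjamini-Hochberg adjustment over 6 ratios).

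The 3 Tet genes, which share their catalytic reaction, showed small changes. Tet3 (ENSMUSG00000034832, chromosome 6, 83362373 to 83459084, minus strand) was the most abundant, with 114, 109 and 114 CPM under DMSO and 97.1, 79.6 and 94.4 CPM under CX-5461. It fell by 0.31 ± 0.06 on the log2 scale, or 1.24-fold (edgeR adjusted p = 0.000441), and kept this call under all 17 alternatives. CX-5461 replicate 2 was the lowest library, and without it the log2 change was -0.23 (adjusted p = 7.18e-05, between 3.47e-13 and 0.0037 over alternatives).

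Tet2 (ENSMUSG00000040943, chromosome 3, 133463679 to 133545139, minus strand) held 39.2, 40.9 and 40.0 CPM with DMSO and 40.0, 28.2 and 36.5 CPM with CX-5461. The groups overlapped, and CX-5461 replicate 2 again stood lowest. The log2 change of -0.19 ± 0.09 did not pass (edgeR adjusted p = 0.0804). It passed as lower without CX-5461 replicate 1, at -0.31 (adjusted p = 0.00662), and was -0.068 without CX-5461 replicate 2 (adjusted p = 0.322), with 2.78e-06 to 0.322 over all alternatives.

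Tet1 (ENSMUSG00000047146, chromosome 10, 62804570 to 62908996, minus strand) was the least abundant of the 3, with 6.01, 6.61 and 7.43 CPM under DMSO and 8.46, 8.17 and 9.25 CPM under CX-5461. The groups did not overlap, and the rise was 0.37 ± 0.12 on the log2 scale (edgeR adjusted p = 0.0101). Tet1 spans 104 kb, and tested genes of that span changed by 0.31 on the smoothed curve. With the gene-span offset the change was 0.064 (adjusted p = 0.634), and without DMSO replicate 1 it was 0.30 (adjusted p = 0.0586), with 0.00344 to 0.656 over all alternatives. The Tet2 to Tet3 ratio per kb of exon was 0.353 ± 0.0175 (SD, n = 3) with DMSO and 0.380 ± 0.0287 with CX-5461, and its libraries overlapped (exact permutation test, p = 0.2).

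**Figure D2:**
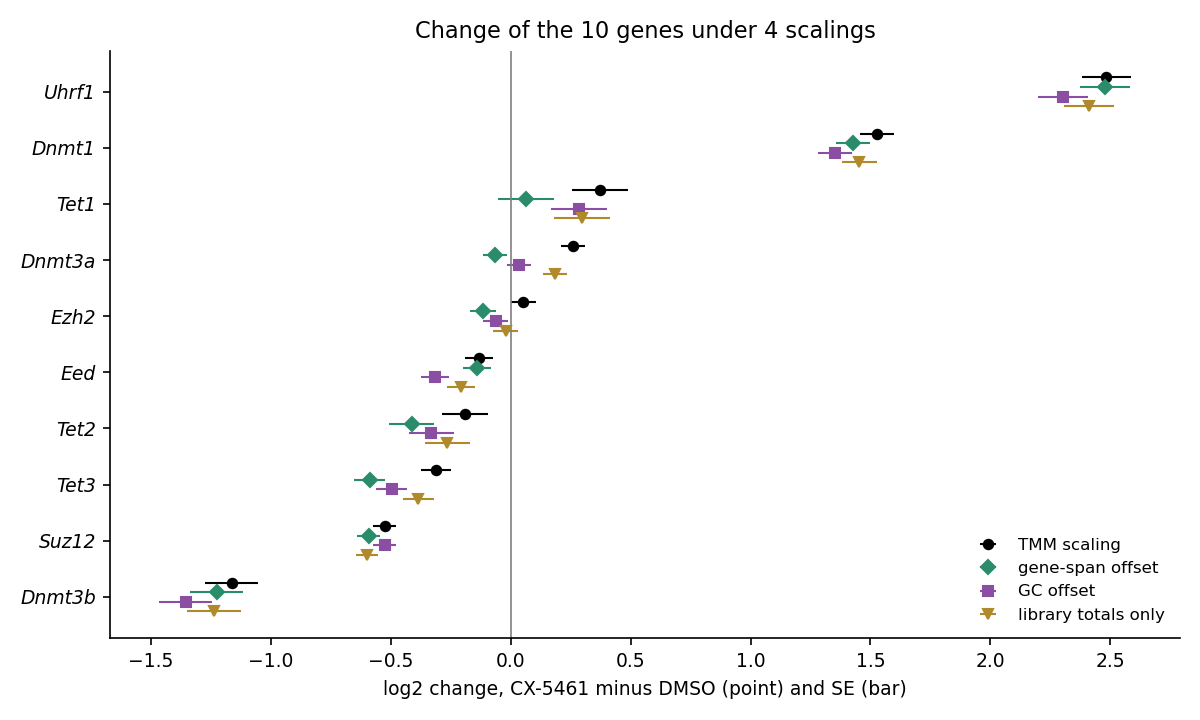
Log2 change of each gene, CX-5461 minus DMSO (points), with its standard error (bars), under 4 scalings of the counts. Uhrf1, Dnmt1, Dnmt3b, Suz12 and Tet3 keep their direction and lie more than 3 standard errors from 0 in all 4, while Dnmt3a and Ezh2 cross 0.

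Among the PRC2 core genes, Suz12 (ENSMUSG00000017548, chromosome 11, 79993106 to 80034123, plus strand) held 207, 209 and 227 CPM with DMSO and 148, 153 and 146 CPM with CX-5461. The treated libraries all lay below the DMSO libraries. Suz12 changed by -0.53 ± 0.05 on the log2 scale, a 1.44-fold fall (edgeR adjusted p = 9.35e-08).

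Eed (ENSMUSG00000030619, chromosome 7, 89954654 to 89980983, minus strand) held 44.7, 47.0 and 45.0 CPM with DMSO and 40.6, 43.5 and 40.6 CPM with CX-5461. It was called lower by a narrow margin, at -0.13 ± 0.06 (edgeR adjusted p = 0.0482), and did not pass under 10 of the 17 alternatives, among them DESeq2 (adjusted p = 0.101) and the removal of any 1 library other than CX-5461 replicate 2, within 0.000147 to 0.179 over all alternatives.

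Ezh2 (ENSMUSG00000029687, chromosome 6, 47530139 to 47595341, minus strand) held 83.4, 88.7 and 84.7 CPM with DMSO and 88.3, 84.2 and 93.5 CPM with CX-5461. The groups overlapped and the log2 change was 0.05 ± 0.05 (edgeR adjusted p = 0.388). Of the tested genes, 92.2% changed by more than Ezh2. Its sign turned to -0.022 with library totals only and to -0.12 with the gene-span offset, and no alternative called it (adjusted p from 0.0574 to 0.924).

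Stoichiometry at the transcript level was compared per kb of exon. The Ezh2 to Suz12 ratio was 0.298, 0.314 and 0.276 with DMSO and 0.441, 0.407 and 0.476 with CX-5461, a 1.49-fold rise with no overlap. Ezh2 to Eed rose less, from 1.08 ± 0.00581 to 1.23 ± 0.107 (SD, n = 3), also with no overlap. Ezh1, the alternative catalytic subunit found mainly in non-dividing cells, held 105, 104 and 108 CPM with DMSO and 62.2, 56.4 and 62.7 CPM with CX-5461, a 1.75-fold fall. The Ezh2 to Ezh1 ratio was 0.887, 0.949 and 0.870 with DMSO and 1.58, 1.67 and 1.66 with CX-5461, a 1.82-fold rise. Each of these 3 ratios gave p = 0.1 in the exact permutation test, the smallest possible, and 0.12 adjusted over the 6 ratios. The level of a ratio depends on the length used: over the longest annotated transcript Ezh2 to Ezh1 was 1.22 with DMSO, whereas its fold change is the same for any fixed length.

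Per kb of exon, Suz12 was the highest of the 10 genes with DMSO, at 43.4 ± 2.26 (SD, n = 3, CPM per kb). Ezh2 (12.8 ± 0.411), Eed (11.9 ± 0.336) and Dnmt1 (10.4 ± 0.108) came next, followed by Tet3 at 6.74, Dnmt3a at 4.97, Uhrf1 at 4.83, Tet2 at 2.37, Dnmt3b at 2.12 and Tet1 at 0.432. Neighbours in this order lay within their spread only for Dnmt3a and Uhrf1, whose libraries overlapped. With CX-5461 the order changed at the top. Suz12 (30.1 ± 0.776), Dnmt1 (30.1 ± 3.85) and Uhrf1 (27 ± 4.84) could not be told apart beyond their spread, and Ezh2 followed at 13.3 ± 0.697. This gap rests on the length used: over the longest transcript Ezh2 lay at 31.8, beside 32.0 for Uhrf1, 34.1 for Suz12 and 37.8 for Dnmt1 (CPM per kb). Tet1 stayed lowest, at 0.558 ± 0.0362. The Dnmt1 to Uhrf1 ratio fell from 2.16 ± 0.0648 to 1.12 ± 0.0678 with no overlap (exact permutation test, p = 0.1; 0.12 adjusted).

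**Figure D3:**
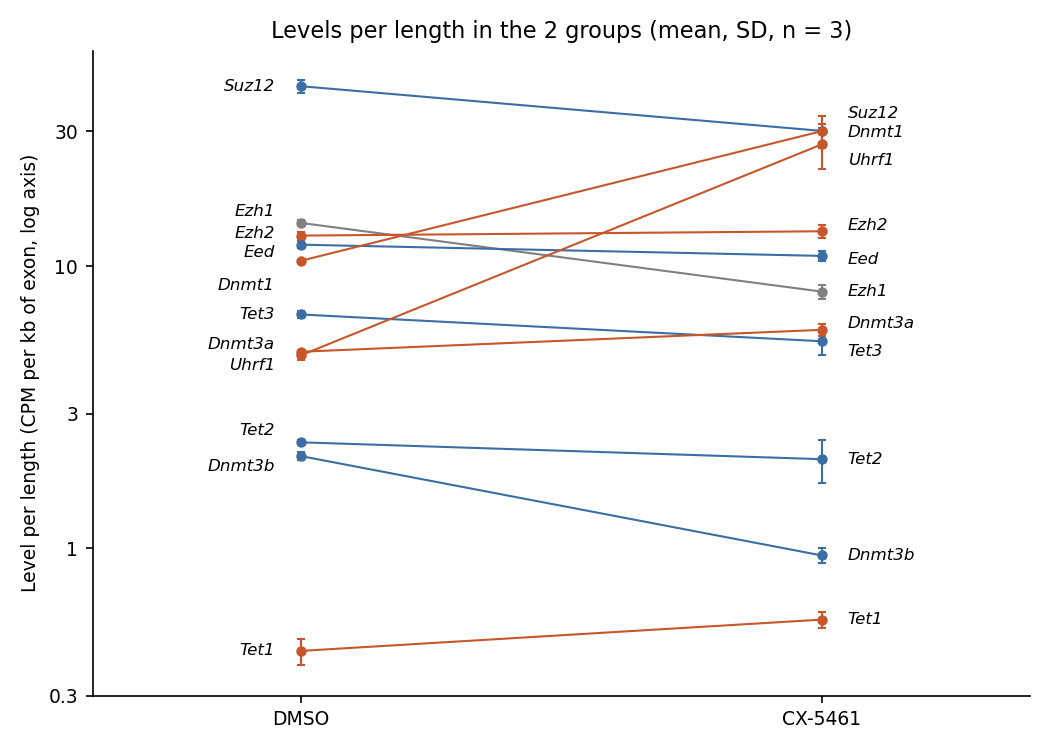
Mean level in CPM per kb of exon (log axis) in each group, with the SD of 3 libraries as bars; orange marks a higher and blue a lower mean with CX-5461, and grey marks Ezh1, which is no member of the 10. Dnmt1 and Uhrf1 rise to the level of Suz12, and Dnmt3b falls away from Tet2.

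Reads from overlapping or copied genes can enter these counts, since the sources used here do not say whether strand was used. Exons of antisense or other opposite-strand noncoding genes overlap exons of Eed by 261 bases, Suz12 by 178, Ezh2 by 174, Dnmt3a by 133 and Tet2 by 43 (GENCODE M21). A processed pseudogene, Dnmt3a-ps1, lies on chromosome 3 (77562600 to 77563870). The values of these 5 genes carry that uncertainty, while no opposite-strand exon overlaps those of Dnmt1, Uhrf1, Dnmt3b, Tet1 or Tet3.

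Of 20 tested cofactors and readers of DNA methylation, 9 were called higher, 6 lower and 5 neither, near the 37.2% and 36.5% of all tested genes. Their median log2 change of 0.05 was -0.022 with library totals only and -0.092 with the GC offset, beside -0.13 for all tested genes with the GC offset. The 3 with the largest called change all rose. Cdca7l, a relative of the Hells partner Cdca7, held 24.5, 26.3 and 25.8 CPM with DMSO and 67.2, 74.4 and 79.0 CPM with CX-5461, a 2.87-fold rise (edgeR adjusted p = 2.31e-11). Hells, the chromatin remodeller that opens DNA to methylation, held 26.5, 27.5 and 29.4 CPM against 69.3, 70.4 and 78.5 CPM, a 2.62-fold rise. Cdca7 itself rose 1.57-fold, from 16.5 ± 1.04 to 26.0 ± 3.97 CPM. Groups did not overlap for any of these 3. Uhrf2, the relative of Uhrf1, named after its values were seen, moved the other way, from 125 ± 3.18 to 93.7 ± 3.89 CPM.

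Outside its core, PRC2 had 10 tested subunits, of which 4 rose, 4 fell and 2 missed the threshold, near the 37.2% and 36.5% of all tested genes. Only 2 were called higher without DMSO replicate 2, without CX-5461 replicate 3, with library totals only or with the gene-span offset and replicate block. Their median log2 change was -0.06 (0.012 with the centred GC offset). Phf19, which guides PRC2 to CpG-rich DNA, rose 2.75-fold, from 5.68, 5.11 and 4.41 CPM to 13.0, 13.3 and 15.6 CPM. Jarid2, an accessory subunit that helps recruit the complex, rose 2.21-fold, from 35.3 ± 1.72 to 77.8 ± 1.13 CPM, and its log2 change of 1.14 was 0.42 with the gene-span offset (adjusted p = 5.13e-06, between 3.03e-57 and 5.13e-06 over alternatives). Lcorl fell 2.52-fold, from 44.5 ± 2.68 to 17.5 ± 2.49 CPM. Of the 2 tested demethylases of H3K27, Kdm6b fell 1.89-fold, from 180.2 ± 2.13 to 95.4 ± 8.91 CPM, whereas Kdm6a, at 58.1 and 60.2 CPM, did not pass. With the gene-span offset Kdm6a was called lower (-0.31, adjusted p = 0.000814), and with the centred GC offset higher (0.16, adjusted p = 0.0457), within 1.42e-05 to 0.929 over all alternatives.

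The other Polycomb complex, PRC1, ubiquitinates histone H2A. Of its 24 tested genes, 8 were called higher and 13 lower, beside 37.2% and 36.5% of all tested genes, and 3 did not pass. Their median log2 change was -0.37, and it stayed between -0.45 and -0.22 over the alternatives. The higher calls numbered 5 with library totals only and with the gene-span or GC offset, but 8 with the centred GC offset. Pcgf5 and Pcgf6, which define variant forms of the complex, fell 2.37-fold and 2.16-fold, the latter from 54.3, 48.6 and 50.6 CPM to 22.9, 24.8 and 23.6 CPM. L3mbtl2, a partner of the Pcgf6 form, rose 1.84-fold, from 106 ± 1.68 to 195 ± 7.53 CPM. Among the 3 tested genes of the H2A deubiquitinase, which removes the PRC1 mark, only Asxl2 was called, with a 1.38-fold fall.

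Genes of histone H3 lysine 9 methylation, another repressive mark, had 5 called higher, 3 lower and 3 not passed of 11, beside 37.2% and 36.5% of all tested genes. The higher calls numbered 3 without DMSO replicate 2, without CX-5461 replicate 3, with the GC offset or the gene-span offset without the block. They numbered 4 with the gene-span offset with the block or centred, and 2 with library totals only. Lower calls numbered 5 with the gene-span offsets and with the GC offset. The centred GC offset gave 5 higher and 2 lower. Suv39h1, a methyltransferase of heterochromatin, rose 1.93-fold, from 22.6 ± 1.98 to 43.4 ± 2.75 CPM. The zinc finger protein gene Wiz, a partner of the G9a methyltransferase, fell 1.71-fold, and Cbx1, an HP1 protein gene, 1.23-fold. The other HP1 protein genes of the list were called higher, 1 of them narrowly (edgeR adjusted p = 0.0493). The median of this list was 0.18, but between -0.066 and -0.044 with the gene-span offsets and -0.059 with the GC offset. The GC offset shifted the median of all tested genes to -0.13.

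**Figure D4:**
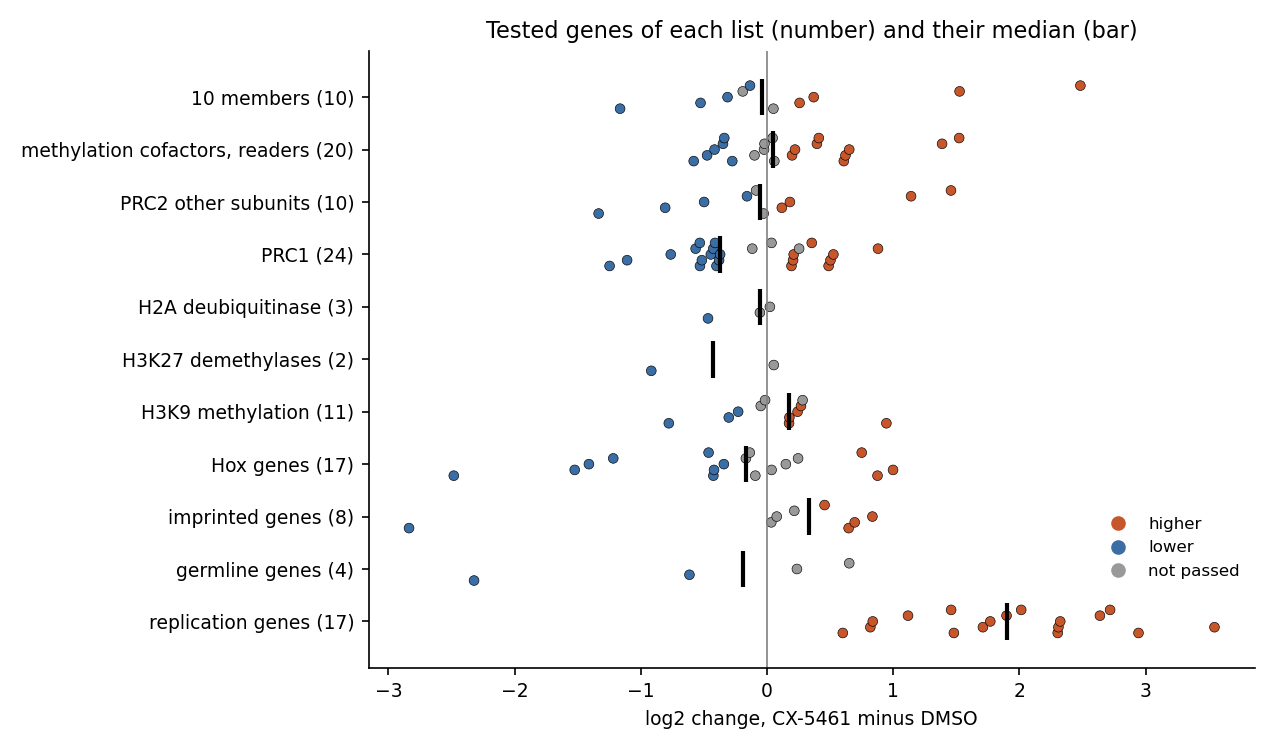
Log2 change, CX-5461 minus DMSO, of every tested gene in each list (points, number in brackets), coloured by the edgeR call, with the list's median as a bar. The replication genes all lie above 0, PRC1 lies mostly below 0 with a median of -0.37, and the 10 members reach from -1.16 to 2.48.

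Transcripts of gene groups known to be held silent by these marks were read next. Of 27 germline genes that promoter methylation keeps off in somatic cells, 23 had too few counts to be tested and 10 had no count in any library. The whole list summed to 11.1 to 11.8 CPM with DMSO and 10.3 to 12.8 CPM with CX-5461, so the summed level overlapped between the groups. Ddx4, a germ cell RNA helicase and the most abundant, held 4.97, 5.36 and 6.09 CPM with DMSO and 6.26, 7.07 and 6.06 CPM with CX-5461 (edgeR adjusted p = 0.11). Of the 4 tested genes none was called higher, and Syce2 and Brdt, named after their values were seen, were called lower. Brdt fell from 3.81 ± 0.449 to 2.50 ± 0.193 CPM. Syce2 had 42 counts in all, with 0.614 CPM under DMSO. Under CX-5461 it held 0.135, 0.115 and 0.101 CPM, at most 3 counts per library, so the size of its fall is unsure. Group means of genes too low to be tested went both ways. Hormad2 (0 to 0.204 CPM, 12 counts in all) and Stag3 (0.336 to 0.601 CPM) had higher means with CX-5461. Sycp3 (0.160 to 0.0702 CPM, 13 counts in all) had a lower mean. Libraries of the groups overlapped for Stag3 and Sycp3, so their direction is unsure. Without CX-5461 replicate 1, 5 genes were tested and 2 were called higher, and 1 was called higher with no filter or with the centred GC offset. For a gene with no count in 1 library, 3 counts, or 0.135 to 0.173 CPM, was taken as an approximate upper limit from counting error.

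The Hox genes, textbook targets of Polycomb, were expressed in part. Of 38 in the table, 17 were tested, with 3 called higher, 8 lower and 6 not passed, beside 37.2% and 36.5% of all tested genes. The 8 lower calls became 5 without DMSO replicate 1, without CX-5461 replicate 3 or with DESeq2. Their summed level was 196 to 201 CPM with DMSO and 115 to 122 CPM with CX-5461, and most of this difference came from Hoxb9. It held 67.2, 70.4 and 75 CPM with DMSO and 13.1, 12.2 and 12.6 CPM with CX-5461, a 5.58-fold fall (edgeR adjusted p = 1.12e-13). Hoxd13 fell 2.87-fold, from 24.0 ± 1.07 to 8.39 ± 1.17 CPM, and Hoxa7 2.33-fold, from 15.2 ± 0.521 to 6.57 ± 0.826 CPM. Another 21 Hox genes had too few counts to be tested, 9 of them with none in any library.

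Among imprinted genes, whose single active copy is set by DNA methylation, 8 of 22 in the table were tested, with 4 called higher, 1 lower and 3 not passed, beside 37.2% and 36.5% of all tested genes. The higher calls numbered 6 of 8 without CX-5461 replicate 2. They numbered 5 of 8 with the replicate block, the centred GC offset, or the gene-span offset with the block, which gave 2 lower calls. With no filter 5 of 19 were called higher. Phlda2, which restrains placental growth, fell 7.14-fold, from 8.85, 8.40 and 7.48 CPM to 0.765, 1.84 and 0.960 CPM (edgeR adjusted p = 9.36e-09). Slc22a18, a transporter gene next to it, rose 1.78-fold, from 43.6 ± 1.07 to 77.8 ± 3.10 CPM, and Mest, a hydrolase gene, rose 1.62-fold. The other genes called higher were Igf2r and Sgce. DNA methylation and histone marks themselves were not measured in these samples.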

How the data were processed

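RNA was sequenced in 6 samples of the B16 cell line, 3 with DMSO and 3 with 1 uM CX-5461. The deposited table holds whole-number counts of reads per protein-coding gene, and these counts were not normalized by the authors, as their differing totals show. The submitters' processing notes name GRCm38 and mm10 as builds. Aligner, counter, annotation and strand setting: not given in the sources used here. All 6 columns were matched to samples by name, and groups came from the titles.

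Genes were kept by filterByExpr (minimum count 10), scaled by TMM and tested with edgeR 4.0.16 (R 4.3.3) by the quasi-likelihood F test on all 6 libraries, two-sided, with Benjamini-Hochberg adjustment over 12198 genes and a threshold of 0.05. Each standard error is the absolute log2 change over the root of its F statistic. CPM use totals times TMM factors. Levels per kb use the union of exons of GENCODE M21 (GRCm38), which also gave coordinates, and 21919 of 22740 identifiers matched. For a symbol with more than 1 row the row with more counts was used. Ratios were tested by exact permutation.

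The members, the lists and the alternatives were chosen with earlier results of these data known. Besides the 10 members, the text names from each list the 3 called genes with the largest change and at least 5 CPM in the higher group, or those that qualify, or else the most abundant gene. Ezh1 (a partner in a ratio), Uhrf2, Kdm6a, Syce2, Brdt, Hormad2, Stag3, Sycp3, Igf2r, Sgce and the cell type markers were named outside this rule, after their values were seen. Epop, Ezhip, Hoxd4, H19 and Meg3 were not analysed here. Alternatives were RLE factors, library totals, DESeq2 1.42.0, no filter, a minimum of 1 CPM in at least 3 libraries, a replicate block, offsets for gene span (with and without the block) and GC content, and each library left out. Both offsets centred at 0 were added after seeing the data.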

Additional observations from a re-analysis of the deposited data

How the results depend on the processing

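Dnmt1, Uhrf1, Dnmt3b, Suz12 and Tet3 kept their direction and their call under all 17 alternatives, with log2 changes of 1.35 to 1.60, 2.30 to 2.55, -1.36 to -1.12, -0.60 to -0.37 and -0.59 to -0.23. The count of members called higher was 2 in place of 4 with the gene-span offset, with or without the replicate block or centring, and 3 to 4 with 1 library left out. Dnmt3a was -0.065 with that offset, -0.067 with the block added and -0.045 centred, and 0.036 with the GC offset, not passed in any of these, but kept its call with the centred GC offset (0.19). Tet1 was 0.064, 0.064 and 0.085 with the span offsets and 0.30 to 0.45 with 1 library left out. Ezh2 was -0.12, -0.12 and -0.10 with the span offsets, -0.064 with the GC offset and -0.022 with library totals only, never called. Tet2 passed as lower with library totals only (-0.26), no filter (-0.21), the replicate block (-0.21), the GC offset (-0.33) and the span offsets (-0.41, with the block -0.43, centred -0.39), and was -0.31 to -0.068 with 1 library left out. Eed did not pass with 1 CPM in 3 libraries (-0.13), DESeq2 (-0.13), the replicate block (-0.13), the span offset with the block (-0.14) or centred (-0.12), and was -0.17 to -0.11 with 1 library left out. The cause of these shifts was not tested.

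No pairing by replicate number was seen: same-numbered samples had correlations of -0.04 to 0.04 in their deviations from the group means. Differently numbered samples had -0.06 to 0.06. With 3 libraries per group, weak pairing cannot be told from none. Beyond Tet2 and Eed the block alone changed no member's call. Over the alternatives 3567 to 4818 genes were called higher and 4084 to 5705 lower. The split moved most with the GC offset (3567 higher, 5705 lower), which shifted the median of all genes to -0.13. With the centred GC offset genes called higher numbered 4665 and genes called lower 4250, and with the span offset 3655 and 5336. Medians of lists that changed sign were as follows. That of the methylation cofactors was -0.022 with library totals only and -0.092 with the GC offset. That of the PRC2 accessory subunits was 0.012 with the centred GC offset. That of H3K9 methylation was -0.065 and -0.066 with the span offsets, -0.044 centred and -0.059 with the GC offset. The Hox median was 0.021 with no filter, over 29 genes in place of 17. The germline median was 0.22 with no filter, over 17 genes in place of 4. It was -0.23 to 0.31 with 1 library left out, over 4 or 5 genes. Of the 31 named and tested genes that are neither members nor cell type markers, 29 kept direction and call under every alternative that tested them (17, or 16 for Syce2). The exceptions were Ddx4, which passed with the centred GC offset, and Kdm6a, at -0.019 with library totals only, -0.31, -0.31 and -0.29 with the span offsets and -0.035 to 0.097 with 1 library left out. Depth limits Dnmt3b and Tet1 most among the 10 genes.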
